A study of Mus musculus with 28 samples.

Results

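Oxidative phosphorylation runs through 4 membrane complexes that carry subunits from both genomes of a cell: complex I (NADH dehydrogenase), complex III (cytochrome bc1), complex IV (cytochrome c oxidase) and complex V (ATP synthase). A small set of core subunits is encoded by mitochondrial DNA, transcribed inside the mitochondrion from long precursors, and the remaining subunits are encoded by nuclear genes, made in the cytosol and imported. Secretory epithelia such as salivary duct are known for many mitochondria, and thyroid hormone is itself a well-known regulator of mitochondrial activity.

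The genes described are the mouse members of these complexes, chosen by symbol alone. The mitochondrial side takes symbols that begin with mt-Nd, mt-Co, mt-Cytb or mt-Atp and holds 13 genes. The nuclear side takes symbols that begin with Ndufa, Ndufb, Ndufc, Ndufs, Ndufv, Uqcr, Cox4, Cox5, Cox6, Cox7, Cox8 or Atp5, without symbols that end in -ps and digits, and holds 95 genes. Together they are 108 of 47643 genes. The nuclear genes comprise 39 of complex I, 8 of complex III, 20 of complex IV (Ndufa4 and Ndufa4l2 counted there) and 16 of complex V. Another 8 are complex I assembly factors (Ndufaf genes), and 4 share the prefix without being subunits, namely Cox7a2l, Atp5s and the pseudogenes Atp5l2-ps and Ndufab1-ps.

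The 28 libraries came from freshly sorted cells of H2B-GFP mice, which carry a histone H2B fused to green fluorescent protein. Such a label is diluted when a cell divides, so cells that keep it (GFP+) have divided little and GFP− cells have lost or never had it. The promoter that drives the transgene, the strain and the sex are not stated in those sources, and every group carries the transgene. Thyroid gland was sorted into GFP− and GFP+ cells at 3 months (4 libraries each), 6 months (4 each) and 9 months (3 each), and salivary gland at 9 months (3 each). The labels do not tie replicates to animals or say whether tissue was pooled, so a p-value here reflects only the spread among these libraries, which may be technical.

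Reads in genes ranged from 507 to 209091 per library, and 6 libraries held fewer than 10000: thyroid GFP− 6 months replicate 2 and 9 months replicate 1, thyroid GFP+ 3 months replicates 1 and 2 and 6 months replicate 4, and salivary GFP+ replicate 1. Levels are CPM, a gene's share of all reads in genes scaled in the usual way, so that 1 read is worth 1007 CPM in salivary GFP+ replicate 1 (993 reads). The gland labels were checked against markers. The 9 salivary acinar genes summed to 18046 to 62114 CPM in salivary GFP− libraries and to 0 to 26.2 CPM in the thyroid libraries of 6 and 9 months. At 3 months thyroid libraries held up to 269 (GFP−) and 1280 CPM (GFP+) of them. In the shallow GFP+ replicate 1 of that age, 1 read alone is worth 640 CPM. The 12 thyrocyte genes summed to 680 to 9831 CPM in thyroid GFP− libraries and to 31.8 to 111 CPM in salivary GFP− libraries. Thyroid GFP+ libraries of 9 months held 411 to 614 CPM of them.

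**Figure D1:**
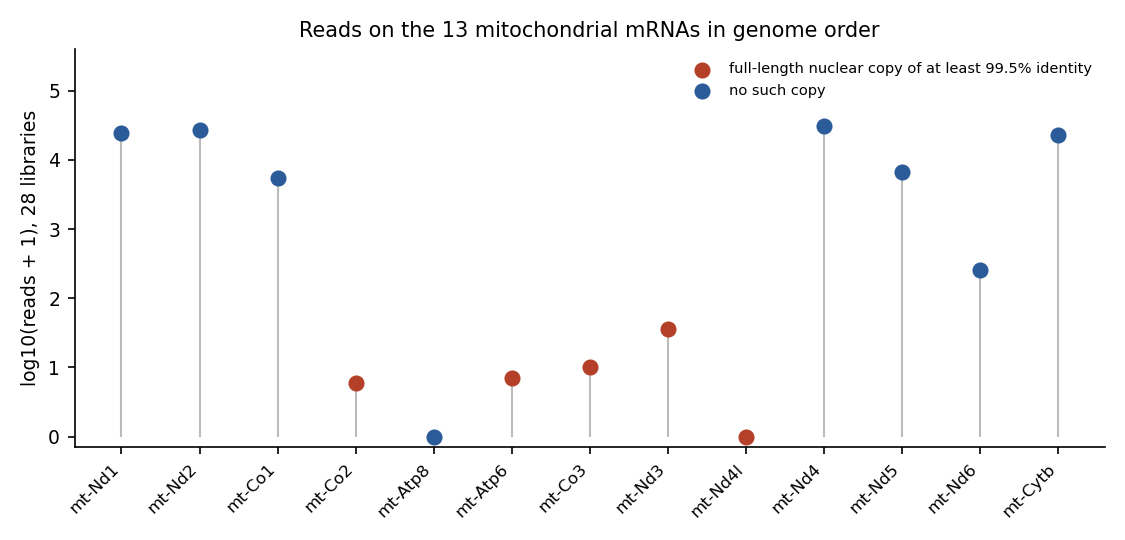
Reads on each of the 13 mitochondrial mRNAs, summed over 28 libraries and drawn as log10(reads + 1) on the vertical axis, in the order of the genes along the mitochondrial genome. Red points mark genes with a full-length nuclear copy that matches at 99.7 to 100%. The 6 neighbouring genes from mt-Co2 to mt-Nd4l hold 55 reads, and the other 7 hold 118677.

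The 13 mitochondrial mRNAs were counted very unevenly. The kit reads 3′ ends of transcripts, so reads were not divided by gene length, and they rank genes by reads and not by RNA made. Complex I subunits mt-Nd4 (31238 reads over all libraries), mt-Nd2 (27271) and mt-Nd1 (24490) and the complex III subunit mt-Cytb (23298) led, and each of these 4 made up at least 14.7% of mitochondrial mRNA reads in every library of 10000 reads or more. The complex I subunit mt-Nd5 had 6627 reads, mt-Co1, the catalytic subunit of complex IV, had 5496, and mt-Nd6, the only one of the 13 on the opposite strand, had 257. The 6 consecutive genes mt-Co2, mt-Atp8, mt-Atp6, mt-Co3, mt-Nd3 and mt-Nd4l, at chrM:7013-10173 (GRCm38), had 5, 0, 6, 9, 35 and 0 reads. These 6 genes hold the remaining core subunits of complex IV and both mitochondrial subunits of complex V, so these were close to unmeasured here, and complex V has no usable mitochondrial value.

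Of those 6 genes, 5 have an annotated nuclear copy that matches the mitochondrial gene at 99.7 to 100% over at least 99% of its length: mt-Co2, mt-Atp6, mt-Co3, mt-Nd3 and mt-Nd4l, each copied on chromosome 1 (GENCODE vM21 pseudogenes). These 5 copies lie close together at chr1:24612407-24615565, next to part copies of mt-Co1 and mt-Nd4. The sixth, mt-Atp8, overlaps mt-Atp6 on the mitochondrial genome, and its best annotated copy, elsewhere on chromosome 1, matched at 81.4%. Only annotated transcripts were searched, so an unannotated copy of mt-Atp8 would have been missed. The well-counted genes had poorer or partial copies. The copy of mt-Nd4 matched at 100% but only over its first 876 bases, leaving 502 bases at the 3′ end without a match. For mt-Cytb the best copy matched at 92.9%, for mt-Nd2 at 96.7% and for mt-Nd1 at 84%. The partial copy of mt-Co1, which had 5496 reads, did reach its 3′ end: its last 483 bases matched Gm29216 at 99.8%. The copies themselves held 40 reads in all. The tables' own row for reads that fit more than 1 place was 0 in every library, so how the counting treated such reads cannot be read from them, and its part in these counts was not tested.

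The 3′ ends below are examples from a gene that was hardly counted and one that was. They do not test why the counts differ, and mt-Co1, also counted, has a closely matching end. The last matched 100 bases of mt-Co3 (chrM:9290-9389, GRCm38, plus strand) are identical to those of its copy Gm28437 (gene at chr1:24613189-24613971), so 1 line stands for both. The last matched 100 bases of mt-Cytb (chrM:15188-15287, plus strand) differ from its copy Gm11410 (gene at chr4:80003989-80005131) at 6 positions, in capitals. All are written 5′ to 3′ from the annotation's transcripts.
mt-Co3 and Gm28437: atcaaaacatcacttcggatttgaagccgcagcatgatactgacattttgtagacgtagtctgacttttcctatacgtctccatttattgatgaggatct
mt-Cytb: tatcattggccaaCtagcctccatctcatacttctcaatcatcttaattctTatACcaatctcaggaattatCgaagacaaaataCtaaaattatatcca
Gm11410: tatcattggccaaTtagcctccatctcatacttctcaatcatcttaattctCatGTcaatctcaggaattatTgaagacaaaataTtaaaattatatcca

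Nuclear members were counted much less per gene. Reads were found for 90 of the 95, and 23000 nuclear reads stood beside 118732 mitochondrial ones. Complex I held 8063 of the nuclear reads, complex V 6493, complex IV 5827 and complex III 2028. The 5 at 0 reads were Cox8b, Cox8c, Cox7b2, Ndufb4c and Ndufab1-ps. In thyroid GFP− libraries of 3 and 6 months, complex I made up 34.4 to 38.8% of nuclear reads, complex III 6.12 to 9.29%, complex IV 25.2 to 28.6% and complex V 24.8 to 32%. At 9 months, with a shallow library among the 3, the ranges were 17.8 to 37.7%, 7.80 to 11.1%, 25.04 to 33.3% and 27.3 to 35.6%, and salivary GFP− libraries had 33.8 to 36.5%, 6.73 to 13.3%, 22.2 to 23.3% and 26.6 to 30.9%. Thyroid GFP+ libraries spread more at 3 months, where 2 are shallow (complex IV 0 to 25.8%, complex V 24.7 to 65.5%), than at 9 months (23.9 to 26.1% and 26.5 to 31.8%). Close copies were rarer on this side: of 89 members with a protein-coding transcript, 4 (Cox7c, Ndufs3, Atp5l and Atp5g2) had a copy of at least 98% identity in their last 200 bases.

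Some nuclear members carry promoter motifs of the ETS, NRF1 and YY1 factors, and most lack each of them. Promoters (250 bases before to 50 after the gene start, RefSeq, GRCm38.p6) were matched for 71 nuclear members. The ETS core CCGGAAG was present on either strand in 15 of them (21.1%, against 9.12% of 27025 promoters of all genes). The NRF1 palindrome (GCGCA followed by its reverse complement) was present in 7 (9.86% against 0.977%), and the YY1 motif AAGATGGC in 9 (12.7% against 2.88%). The ETS and YY1 motifs can share the letters AAG, and a match is a description of sequence, not of binding. The promoters of Cox6a1, a small complex IV subunit (chr5:115348909-115349208, minus strand), and Atp5k, subunit e of complex V (chr5:108434350-108434649, minus strand), carry both NRF1 and ETS matches. Both are printed along the gene's own strand with the matches in capitals, the ETS core in its reverse complement.
Cox6a1: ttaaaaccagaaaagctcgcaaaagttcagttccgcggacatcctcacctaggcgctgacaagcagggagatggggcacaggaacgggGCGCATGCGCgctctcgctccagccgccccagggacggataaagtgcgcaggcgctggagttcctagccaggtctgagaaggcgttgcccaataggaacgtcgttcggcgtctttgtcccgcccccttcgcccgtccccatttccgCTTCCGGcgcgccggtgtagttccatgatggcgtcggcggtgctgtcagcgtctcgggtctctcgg
Atp5k: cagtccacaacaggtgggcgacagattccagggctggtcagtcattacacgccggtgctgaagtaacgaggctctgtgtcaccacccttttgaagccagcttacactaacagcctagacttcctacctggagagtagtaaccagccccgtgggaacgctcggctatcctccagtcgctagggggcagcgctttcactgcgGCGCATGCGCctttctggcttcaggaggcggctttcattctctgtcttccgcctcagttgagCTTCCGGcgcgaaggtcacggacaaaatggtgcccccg

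**Figure D2:**
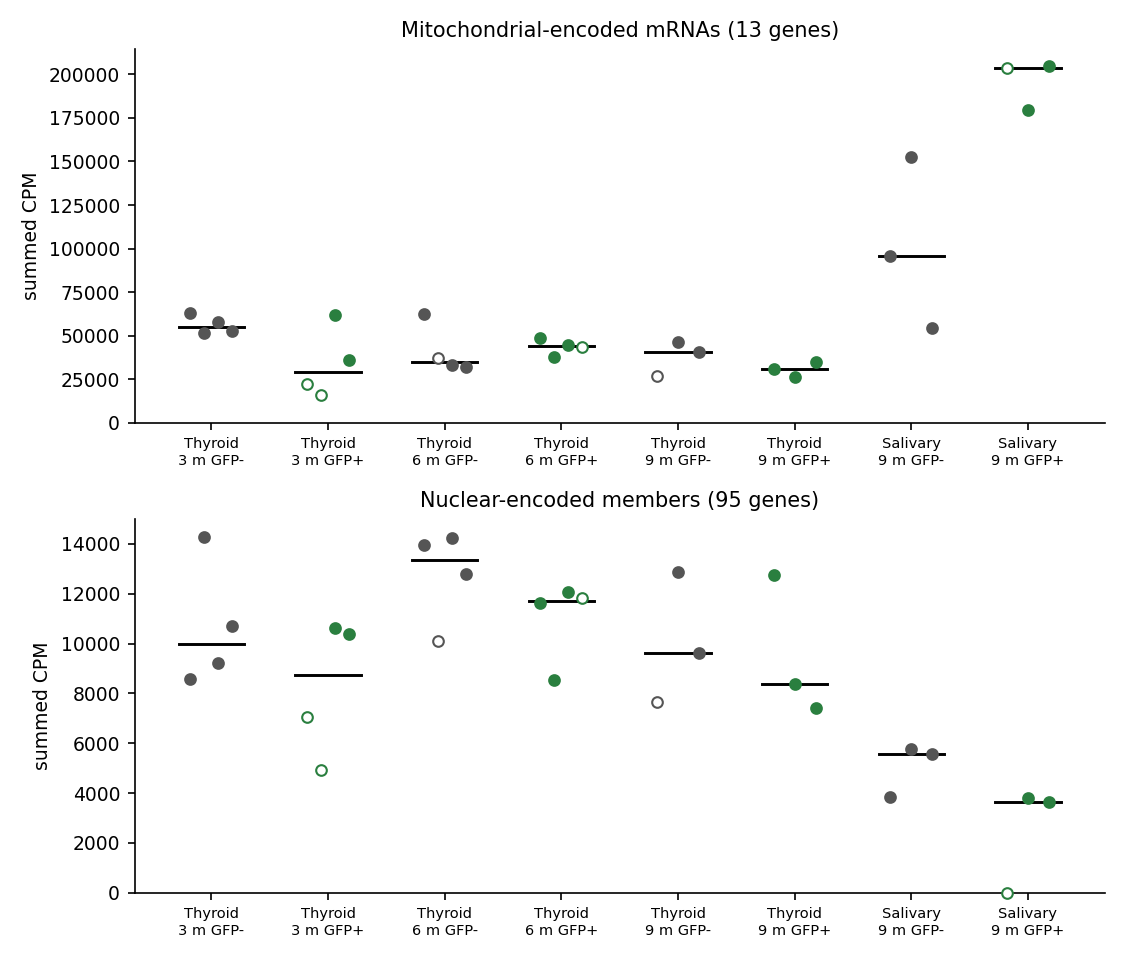
Summed CPM of the 13 mitochondrial members (top) and the 95 nuclear members (bottom), 1 point per library, by gland, age in months (m) and GFP fraction. Bars are medians and open points are libraries under 10000 reads. At 9 months all 6 salivary libraries lie above all 6 thyroid libraries for the mitochondrial sum and below them for the nuclear sum.

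Salivary and thyroid cells differed most, and the 2 sides lay in opposite directions on the CPM scale. In GFP− cells at 9 months the mitochondrial mRNAs summed to 54188, 95856 and 152431 CPM in salivary gland and to 26683, 40652 and 46693 CPM in thyroid. In GFP+ cells they summed to 179313, 203424 and 204910 CPM in salivary gland and to 26206, 31100 and 35221 CPM in thyroid. Every salivary library was thus above every thyroid library, and the medians were 2.36 and 6.54 times as high. Nuclear members summed to 3826, 5576 and 5763 CPM in salivary GFP− and to 7648, 9639 and 12857 CPM in thyroid GFP− libraries. In GFP+ libraries the sums were 0, 3660 and 3815 CPM against 7407, 8365 and 12747 CPM. Thyroid medians were 1.73 and 2.29 times the salivary ones, again without overlap. That direction depends on the denominator. As a share of reads of nuclear genes other than Gm42418, which overlaps the ribosomal RNA repeat, nuclear members had a thyroid median 1.43 times the salivary one in GFP− cells without overlap, and 0.762 times in GFP+ cells with overlap. The salivary 0 is replicate 1, whose 993 reads allow a nuclear sum of up to 3021 CPM (3 reads, counting error only).

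**Figure D3:**
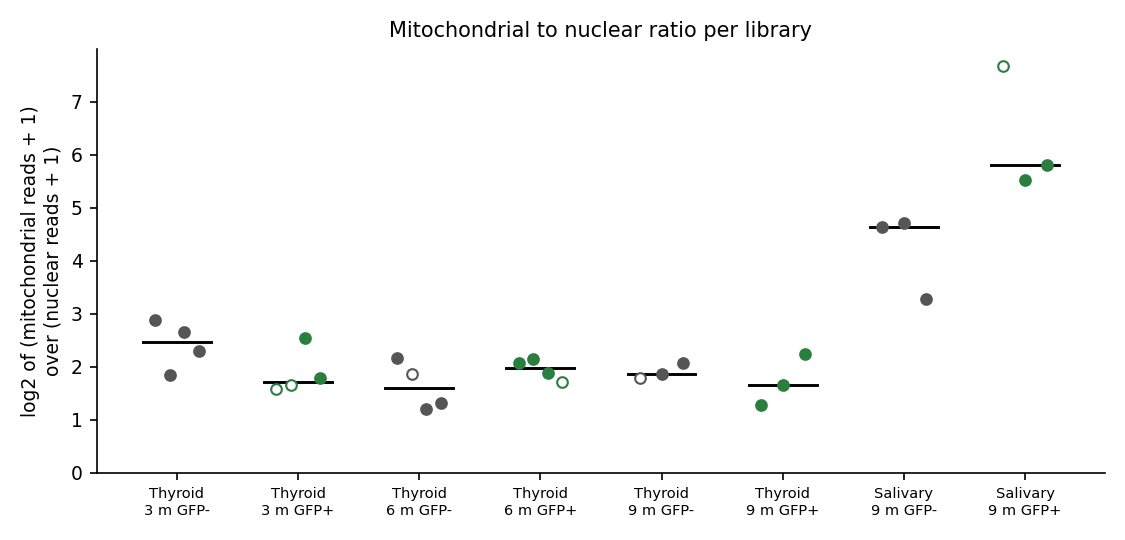
Log2 of mitochondrial over nuclear member reads (1 read added to each) per library on the vertical axis, by gland, age in months (m) and GFP fraction. Bars are medians, open points libraries under 10000 reads. The 22 thyroid libraries span 1.21 to 2.88 and the 6 salivary libraries 3.28 to 7.67.

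The ratio of the 2 sums does not depend on how libraries are scaled. Its log2 was 1.21 to 2.88 in the 22 thyroid libraries and 3.28 to 7.67 in the 6 salivary ones, without overlap. In GFP− cells at 9 months it was 1.78, 1.86 and 2.08 in thyroid and 3.28, 4.64 and 4.72 in salivary gland, a difference of medians of -2.78. In GFP+ cells it was 1.29, 1.65 and 2.25 against 5.52, 5.80 and 7.67, a difference of -4.16. The 7.67 belongs to salivary GFP+ replicate 1, which has no nuclear member read, so it is set by the 1 read added and would be 8.66 with 0.5 added, while the median is not affected. With reads pooled over each GFP− group, the difference was -1.94. No p-value is given for these sums, since the members were chosen with earlier results of these data known. In addition, 3 libraries against 3 cannot go below 0.1 in an exact two-sided permutation test.

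By gene, mt-Cytb of complex III and mt-Nd5 of complex I had the 2 smallest adjusted p-values among members in the gland comparisons. In GFP+ cells mt-Cytb stood at 40865, 41780 and 51360 CPM in salivary gland and at 4799, 5314 and 5477 CPM in thyroid. Its fitted thyroid over salivary log2 fold change was -4.41 ± 1.52 (SE; edgeR quasi-likelihood test, Benjamini-Hochberg adjusted p = 0.0344). For mt-Nd5 the salivary values were 11078, 12124 and 12319 CPM and the thyroid values 1305, 1422 and 1616 CPM (log2 fold change -4.48 ± 1.55, adjusted p = 0.0344 by edgeR). The groups do not overlap for either gene. Also called lower in thyroid by edgeR were 2 complex I and IV genes, mt-Nd4 (-4.14, adjusted p = 0.0429) and mt-Co1 (-4.14, adjusted p = 0.0466). That makes 4 of 6 tested mitochondrial members, where 14.4% of all 974 tested genes were called and 5.03% were called lower. The other 2, mt-Nd1 and mt-Nd2, had log2 fold changes of -3.91 and -3.83 and adjusted p-values of 0.0554 and 0.0588.

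In GFP− cells the same 6 genes had thyroid over salivary log2 fold changes between -3.74 (mt-Nd5) and -2.63 (mt-Co1), and none was called by edgeR, where 14.2% of all genes were called and 4.31% were called lower. At an unadjusted p under 0.05 there were 5 (24.2% of all genes), and DESeq2 called 5 (4.93% of all genes lower). The 4 calls in GFP+ cells depended on the setting and on single libraries. DESeq2 called all 6 genes (adjusted p 0.00024 to 0.0033). So did edgeR with a stricter filter on low counts (9.68e-05 to 0.0008) or with all 28 libraries (0.0213 to 0.0459). Scaling by total reads, chosen after seeing the data, did too (0.00013 to 0.0016 by edgeR). With no filter, or with the replicate number as a block, edgeR called none. With the size factors of DESeq2 as scaling, mt-Co1 lost its call. Without salivary GFP+ replicate 2 or 3, or thyroid GFP+ replicate 2 or 3, no mitochondrial member was called. Without thyroid GFP+ replicate 1 all 4 were lost as well (adjusted p of mt-Cytb 0.107 by edgeR), and mt-Nd6, tested there, was called (adjusted p = 0.0238 by edgeR). Without the shallow salivary GFP+ replicate 1, 7 of 7 tested were called, where 4.68% of all genes were called lower. Adjusted p-values of mt-Cytb over all alternatives ran from 8.12e-05 to 0.603, and its log2 fold change from -4.79 to -2.81.

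**Figure D4:**
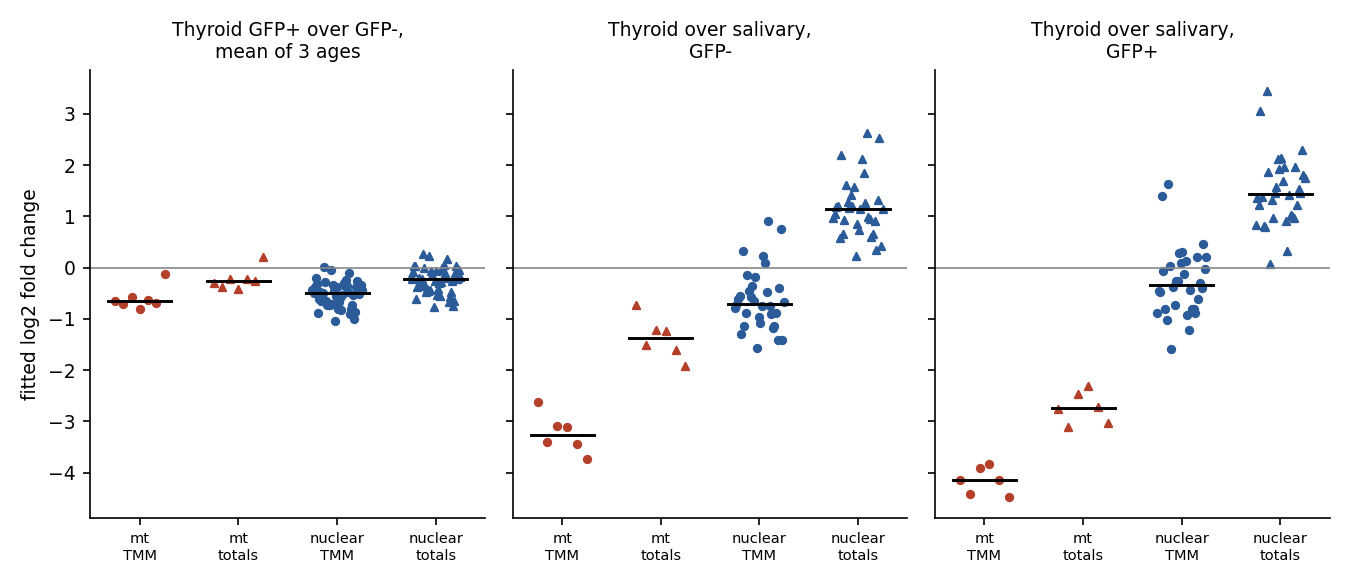
Fitted log2 fold change of each tested member on the vertical axis (red mitochondrial, blue nuclear) for 3 comparisons, with libraries scaled by TMM factors (circles) or by total reads (triangles). Bars are medians. In both gland comparisons the nuclear members lie mostly below 0 with TMM and all above 0 with total reads, while the mitochondrial members stay below 0. Genes could pass the filter on low counts through a single gland.

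Which way the nuclear members differ between glands depends on the scaling. TMM factors, computed from a trimmed mean of gene ratios between libraries, ranged from 0.232 to 7.11 among the 12 libraries of 9 months. With them the 32 tested nuclear members had a median thyroid over salivary log2 fold change of -0.70 in GFP− cells (27 of 32 below 0) and -0.34 in GFP+ cells (22 of 32 below 0), beside 0.17 and 1.15 for all tested genes. With total reads in place of TMM, chosen after seeing the data, the medians were 1.14 and 1.44 with all 32 above 0 in both, beside 1.96 and 2.86 for all genes. Genes could pass the filter on low counts through the libraries of a single gland, which can shape these signs. How far it did was not tested. Measured against all genes, the nuclear median was lower in thyroid by 0.87 and 1.48 with TMM and by 0.81 and 1.43 with total reads. None of the 32 was called by edgeR with TMM or by DESeq2 in either fraction. At an unadjusted p under 0.05 there were 2 in GFP− cells (Cox7a2l and Ndufb9, named after their values were seen) and 1 in GFP+ cells (Cox5a, likewise). With total reads 9 and 8 of 32 were called higher in thyroid, where 70.7% and 70.6% of all genes were, so the members' shares were below the background. The mitochondrial medians were -3.25 and -4.14 with TMM and -1.37 and -2.74 with total reads, below 0 for all 6 genes under both.

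Other RNAs differed between the same libraries, and their part in the member differences was not tested. The mitochondrial ribosomal RNAs, mt-Rnr1 and mt-Rnr2, summed to 262308 to 387888 CPM in salivary GFP− libraries and to 411474 to 505384 CPM in their GFP+ counterparts. In thyroid at 9 months they summed to 161965 to 193567 and 135444 to 151542 CPM. Mitochondrial mRNA reads per 100 mitochondrial rRNA reads overlapped between glands in GFP− cells (16.5 to 58.1 salivary, 16.5 to 27.6 thyroid). In GFP+ cells they did not (35.5 to 49.8 salivary, 17.3 to 24 thyroid). Cytosolic ribosomal protein genes were lower in salivary libraries (5049 to 10283 CPM) than in thyroid libraries of 9 months (18015 to 47103 CPM). The marker lists of each gland differed as given above for acinar and thyrocyte genes, and duct genes summed to 2168 to 16665 CPM in salivary and 0 to 335 CPM in thyroid libraries. In bulk libraries, fewer cells of a type and less RNA per cell cannot be told apart.

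The make-up of the counted mitochondrial mRNA overlapped between the 2 glands for every counted gene. Over libraries with at least 10000 reads, mt-Nd4 made up 20.8 to 32.1% of mitochondrial mRNA reads in salivary gland and 23.5 to 31.6% in thyroid. For mt-Nd2 the shares were 20.9 to 25.5% and 19 to 36.3%, for mt-Nd1 16.9 to 19.8% and 17.8 to 23.5%, and for mt-Cytb 19.4 to 23.1% and 14.7 to 20.8%. For mt-Nd5 they were 5.6 to 8.2% and 3.6 to 6.5%, and for mt-Co1 3.3 to 5.2% and 2.3 to 6.6%. The least counted, mt-Nd6, had the lowest shares, 0.055 to 0.19% (median 0.068%) in salivary gland and 0.081 to 0.69% (median 0.31%) in thyroid. All 7 ranges overlap when thyroid ages are joined. At 9 months alone, again in libraries with at least 10000 reads, mt-Nd1, mt-Cytb and mt-Nd5 did not overlap. Their shares were 16.9 to 19.8%, 19.39 to 23.1% and 5.6 to 8.2% in salivary gland. In thyroid of 9 months they were 20.1 to 23.3%, 15.5 to 19.25% and 4.2 to 5.4%. The other genes overlapped there too.

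Within salivary gland the mitochondrial sums were higher in GFP+ than in GFP− libraries on the CPM scale, and no member passed the test. The 3 GFP+ sums were all above the 3 GFP− sums, with medians 2.12 times apart, and the log2 ratio to nuclear members was higher by 1.16 (5.52 to 7.67 against 3.28 to 4.72). Without the shallow GFP+ replicate 1, the 2 remaining GFP+ ratios of 5.52 and 5.80 were still above all 3 GFP− ratios. Nuclear members summed to 0 to 3815 CPM in GFP+ against 3826 to 5763 CPM in GFP− libraries, nearly touching, and as a share of reads of nuclear genes other than Gm42418 the GFP+ median was 1.38 times the GFP− median, with overlap. By gene, 0 of 6 mitochondrial and 0 of 32 nuclear members were called by edgeR or DESeq2, and edgeR called 0% of all 974 genes. At an unadjusted p under 0.05 there were 0 and 1 (Atp5k, log2 fold change -2.81, chosen after its value was seen). All 6 mitochondrial genes had fitted values above 0, from 0.33 to 0.57. Salivary acinar genes summed to 18046 to 62114 CPM without GFP and to 0 to 11310 CPM with it, and duct genes to 2168 to 16665 and 4028 to 5426 CPM, and the part of this in the difference was not tested. The difference of GFP effects between glands gave 0 calls among members by edgeR and by DESeq2 (0% of all genes, and no member at an unadjusted p under 0.05).

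In thyroid, 1 member differed between GFP+ and GFP− cells by the test, with a lower level in GFP+. That gene was Ndufa1, an accessory subunit needed to build the membrane arm of complex I. Its values at 3 months were 397, 905, 250 and 564 CPM among GFP− libraries against 0, 0, 483 and 349 CPM among GFP+ libraries, the zeros being the 2 shallow ones. At 6 months they were 1006, 206, 622 and 407 against 447, 380, 481 and 0 CPM, and at 9 months 340, 603 and 484 against 138, 241 and 337 CPM. The groups overlap at 3 and 6 months and nearly touch at 9 months, where the 340 CPM is 2 reads of a shallow library. Averaged over ages, the log2 fold change was -1.05 ± 0.378 (SE; edgeR adjusted p = 0.0303). The edgeR adjusted p was 0.0525 with the replicate number as a block, 0.0762 with all 28 libraries in the fit and 0.44 with no filter on low counts. This is 1 of 47 tested nuclear members, where 8.79% of the 1900 tested genes were called lower and 20.2% in either direction. Without a single library the adjusted p of Ndufa1 reached 0.221 (thyroid GFP− 9 months replicate 2), and it was above 0.05 when any 1 of 8 libraries was left out: GFP− 3 months replicate 2, GFP− 6 months replicate 3, GFP− 9 months replicates 2 and 3, GFP+ 6 months replicate 2 and GFP+ 9 months replicates 1, 2 and 3.

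The other members did not pass the test, and most had fitted values below 0. Of the 47 tested nuclear members, 46 had a fitted value below 0 for the mean over ages, with a median of -0.50, and all 7 tested mitochondrial mRNAs did, with a median of -0.64. The median of all genes was -0.08. With total reads in place of TMM these medians were -0.23, -0.27 and 0.21, with 40 of 47 and 6 of 7 below 0. For mt-Nd2, which had the lowest value among mitochondrial members, the log2 fold change was -0.81 ± 0.47 (edgeR adjusted p = 0.263), and for mt-Nd6, the highest, it was -0.12. No mitochondrial member was called by edgeR or DESeq2, nor was any at an unadjusted p under 0.05. More calls, all lower in GFP+, came by edgeR from several alternatives. A stricter filter kept only genes with at least 20 reads in at least 50% of libraries. It called 6 of 6 mitochondrial and 6 of 9 nuclear members (19% of all genes there were lower). Without the shallow libraries, 4 of 7 and 2 of 55 were called (8.81% of all genes lower). Leaving out thyroid GFP+ 3 months replicate 4 alone gave 7 of 47 nuclear calls. Leaving out GFP+ 6 months replicate 3 alone gave 3 of 47.

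Among the best-counted nuclear genes of each complex, none but Ndufa1 passed the test. In complex I, Ndufa6 had a log2 fold change of -0.83 (mean over ages, GFP+ over GFP−; edgeR adjusted p = 0.102) and Ndufa5 one of -0.59. In complex III, the hinge protein Uqcrh had -0.33, Uqcrb -0.26 and the Rieske iron-sulfur protein Uqcrfs1 -0.48. In complex IV, Cox6c had -0.73, Cox6b1 -0.73, Cox6a1 -0.65, Cox7a2 -0.72, Cox8a -0.45 and Ndufa4 -0.66. In complex V, the F1 alpha subunit Atp5a1 had -0.43, the epsilon subunit Atp5e -0.38 and Atp5g3, which encodes the proton-carrying c subunit, -0.32. Cox4i1, the ubiquitous form of complex IV subunit 4, had 0.02. That last value came from few reads: at 3 months the GFP+ reads of Cox4i1 were all in replicate 4, and without that library the fitted value was -1.83.

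At single ages no member passed the test by edgeR. At 3 months, 0 of 7 mitochondrial and 0 of 47 nuclear members were called (9.74% of all genes), with 1 and 2 at an unadjusted p under 0.05, and DESeq2 called 1 and 0. The median log2 fold changes were -1.35 and -0.68, beside -0.26 for all genes. At 6 months the counts were 0 and 0 (7.11% of all genes), with 0 and 2 at an unadjusted p under 0.05 and 0 by DESeq2, and the medians were -0.20 and -0.66. At 9 months they were 0 and 0 (1.89% of all genes), with 0 and 0 at an unadjusted p under 0.05 and 0 by DESeq2, and the medians were -0.26 and -0.25. The mitochondrial sums at 3 months were 51289 to 63075 CPM for GFP− libraries against 15773 to 61967 CPM for GFP+ libraries, so that the groups overlap through replicate 3 of GFP+. The log2 ratio to nuclear members overlapped between fractions at every age, with differences of medians of -0.75, 0.38 and -0.21 at 3, 6 and 9 months. Without the shallow libraries the difference at 6 months was 0.75.

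**Figure D5:**
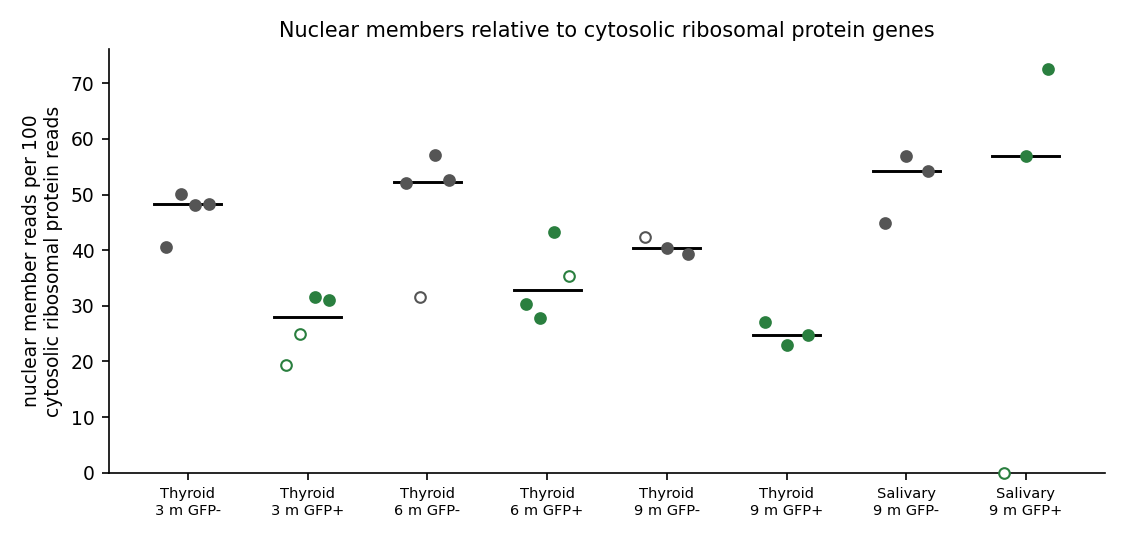
Reads on nuclear members per 100 reads on cytosolic ribosomal protein genes, 1 point per library on the vertical axis, by gland, age in months (m) and GFP fraction. Bars are medians, open points libraries under 10000 reads. Thyroid GFP+ libraries lie below GFP− libraries at 3 and 9 months without overlap.

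A second ratio that does not depend on scaling, chosen after seeing the data, sets nuclear members against the 107 cytosolic ribosomal protein genes. At 3 months thyroid GFP− libraries held 40.5, 50.1, 48.1 and 48.3 nuclear member reads per 100 ribosomal protein reads, and GFP+ libraries 19.3, 25, 31.6 and 31. At 6 months the values were 52, 31.6, 57 and 52.7 against 30.3, 27.9, 43.3 and 35.3, and at 9 months 42.5, 40.3 and 39.2 against 27.1, 22.9 and 24.7. GFP+ medians were 0.581, 0.626 and 0.612 times the GFP− medians, without overlap at 3 and 9 months. At 6 months the overlap came from 1 library, the shallow GFP− replicate 2 at 31.6, below GFP+ replicates 3 and 4. Without the shallow libraries the fractions did not overlap at any of the 3 ages. In salivary gland the values were 44.9, 57 and 54.2 in GFP− and 0, 57 and 72.5 in GFP+ libraries, which overlap. Both sides of the ratio enter, and on the CPM scale the ribosomal side differed more. GFP+ medians of ribosomal protein CPM were 1.55, 1.24 and 1.49 times the GFP− medians at 3, 6 and 9 months, and those of nuclear members 0.875, 0.877 and 0.868 times, each with overlapping groups. At 9 months the ribosomal protein sums were 30012, 36562 and 47103 CPM for GFP+ libraries against 18015, 24562 and 31875 CPM for GFP− libraries. By edgeR 0 of 75 tested ribosomal protein genes were called for the mean over ages, where 20.2% of all 1900 tested genes were.

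The sorted thyroid fractions also differed in cell type markers, and the part of these in the differences above was not tested. Of all 1900 tested genes, 216 were higher and 167 lower in GFP+ cells for the mean over ages. For the mean over ages, 10 of 10 fibroblast genes were higher in GFP+ cells by edgeR (1073 to 9163 CPM in GFP−, 0 to 19762 CPM in GFP+ libraries). Lower were 8 of 8 tested endothelial genes (1942 to 8487 against 0 to 2561 CPM), 4 of 4 red cell genes (358 to 14439 against 0 to 1739 CPM) and 3 of 3 C cell genes (2039 to 27897 against 678 to 21149 CPM). Also lower were 3 of 3 parathyroid genes (5099 to 69156 against 2441 to 61950 CPM) and 3 of 5 thyrocyte genes (680 to 9831 against 0 to 4447 CPM). Of 5 smooth muscle genes 3 were higher in GFP+ cells. Of 4 tested nuclear-retained RNAs 2 were higher (Meg3 2.50, Kcnq1ot1 1.84), with a list median of 0.97, and of 10 immediate early genes, which cell dissociation can induce, 1 was lower (Ier2 -1.06), with a median of -0.43. The brown fat markers Ucp1 and Cidea, from a tissue rich in mitochondria, were at 0 in all 28 libraries, as was Cox8b, and of the other 3 genes of that list Fabp4 had 1017 reads, Adipoq 1 and Plin1 1.

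No member differed with age by the test. Over 3, 6 and 9 months, 0 of 7 mitochondrial and 0 of 47 nuclear members were called by edgeR in GFP− cells (1.53% of all genes), with 1 and 2 at an unadjusted p under 0.05 and 0 by DESeq2. In GFP+ cells the counts were also 0 and 0 (1.58% of all genes), with 0 and 0 at an unadjusted p under 0.05 and 0 by DESeq2. The mitochondrial sum in GFP− cells was 51289 to 63075 CPM at 3 months, 32089 to 62754 CPM at 6 months and 26683 to 46693 CPM at 9 months. The libraries of 9 months were all below those of 3 months, with a median 0.736 times as high, while those of 6 months overlapped both. In GFP+ cells the sums were 15773 to 61967, 37886 to 48805 and 26206 to 35221 CPM, so that 3 months overlapped both later ages while 9 months lay below 6 months. Nuclear sums overlapped across ages in both fractions. The difference of GFP effects between ages gave 0 calls among 7 and 47 members (0.158% of all genes), with 0 and 1 at an unadjusted p under 0.05 and 0 by DESeq2.

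Tissue-restricted forms of complex IV subunits were nearly absent. The muscle and heart forms Cox6a2, Cox7a1 and Cox8b held few or no reads: Cox6a2 had 4, 23 and 4 reads in thyroid GFP− cells of 3, 6 and 9 months and 0 in salivary gland, Cox7a1 at most 8 in any group, and Cox8b 0 in all. The 10 skeletal muscle markers summed to 0 to 362 CPM in thyroid GFP− libraries, 0 to 52.4 CPM in thyroid GFP+ libraries and 0 in all 6 salivary libraries, and their part in the Cox6a2 reads was not tested. Their ubiquitous counterparts were read in every group: Cox6a1 at medians of 53.7 to 279 CPM in thyroid and 55.4 and 75.7 CPM in salivary GFP− and GFP+ cells. Cox7a2 had 542 reads, of which 41 were in salivary gland. The hypoxia- and lung-associated Cox4i2 had 5 reads in all, and Ndufa4l2, which is induced by hypoxia, had 2. All of these reads were in thyroid GFP+ libraries.

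Genes of neighbouring pathways gave few testable members. Of all 1900 genes tested in thyroid, 20.2% were called between fractions for the mean over ages. For the mean over ages in thyroid, 0 of 2 tested complex II genes (Sdhc -0.55, Sdha -0.36) and 0 of 5 citrate cycle genes (Suclg1 -0.34) were called. The count was also 0 of 4 for carrier genes (Vdac2 -0.82, Slc25a3 -0.51), 0 of 2 for mitochondrial genome expression (Lrpprc -0.71, Slirp -0.53), 0 of 2 for assembly and import, and 0 of 1 for regulators (Yy1 -0.43). Both mitochondrial rRNAs were also not called (mt-Rnr2 -0.87, mt-Rnr1 -0.69). Of the 2 tested glycolysis genes 1 was higher in GFP+ cells, Hk2, which encodes a hexokinase that binds mitochondria (log2 fold change 2.17, edgeR adjusted p = 5.86e-06), while Aldoa had -0.70. Of 79 mitochondrial ribosomal protein genes 1 was tested (Mrpl33, -0.51). List medians were between -0.78 and -0.34 apart from glycolysis at 0.74, beside -0.08 for all genes.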

How the data were processed

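RNA of sorted cells was read by 3′ mRNA sequencing (QuantSeq), per the labels' protocols. The authors deposited 1 table of raw read counts per gene for each of the 28 libraries, with 47643 genes and 5 summary lines. The submitters' processing notes name bcl2fastq and mm9, while aligner, counter and annotation are not given in the sources used here. Summary lines were left out of all totals: reads with no feature were 13.3 to 85.8% and ambiguous reads at most 0.426%. Gene identifiers were matched to GENCODE vM21 (GRCm38) symbols for 47224 genes, and the 419 others held at most 0.0376% of a library's reads. Coordinates are those of GRCm38 and were not used to join data.

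CPM was computed over gene reads (507 to 209091 per library). Where an interval or a limit of 3 reads is used, it covers counting error only, as the reads carry no molecular identifiers that are known. Counts were tested with edgeR 4.0.16 (robust quasi-likelihood, TMM, filterByExpr with minimum count 10 and total 15) in R 4.3.3 and Benjamini-Hochberg adjustment at 0.05 over all tested genes: 1900 in 22 thyroid libraries, 974 in the 12 libraries of 9 months. Gland comparisons and the salivary fraction comparison share libraries, so they are not independent. DESeq2 1.42.0, other filters, scalings, a replicate block and omitted libraries were alternatives, and the scripts were tested on simulated data. The filter on low counts does not ask for reads in both groups of a comparison, so it can shape the signs of tested genes. Medians of sums are over libraries.

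Genes named are all mitochondrial mRNAs, called nuclear members, the 3 tested members with most reads in complexes I, III, IV and V, tissue isoforms fixed by name, and called or most-read genes of other lists, of which 1 is not reported here. Members and lists were chosen with earlier results of these data known. The ratio to ribosomal protein reads and scaling by total reads were chosen after seeing the data. No 2 libraries of a group held identical counts.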

Additional observations from a re-analysis of the deposited data

Results flagged for a closer look

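In groups of 4 libraries, 22 of 148 values (14.9%) had 1 library far from the other 3. Chance gives about 1 in 20 for normal values of equal spread, which these are not. A gene read in only 1 library of a group is always flagged, so the share does not measure an excess over chance. The values share libraries and are not independent. Thyroid GFP− 6 months replicate 1 was high in summed mitochondrial mRNA (62754 CPM, the other 3 at 32089 to 37152 CPM), in mt-Nd4 (19812 CPM), in mt-Nd2 (14683 CPM) and in mitochondrial mRNA per 100 mitochondrial rRNA reads (33.0).

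Thyroid GFP+ 6 months replicate 4 has 507 reads, of which 22 are mitochondrial mRNA. It stood apart in mt-Nd5 (5917 CPM), Cox6a1 (1972 CPM, 1 read) and Atp5a1 (0 CPM). It also did in the shares of mitochondrial mRNA reads on mt-Nd4 (50%), mt-Nd5 (13.6%), mt-Cytb (0%) and mt-Nd6 (0%). In the same group, replicate 2 was low in summed nuclear members (8557 CPM) and held the 1 read of Ndufa4l2 (13.1 CPM), and replicate 1 held the 1 read of Cox4i2 (11.8 CPM).

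Thyroid GFP+ 3 months replicate 4 held all reads of its group on Cox4i1 (126 CPM), Cox4i2 (22.9 CPM) and Ndufa4l2 (5.72 CPM). Replicate 1 of that group, a shallow library, had 14.3% of mitochondrial mRNA reads on mt-Co1. In thyroid GFP− cells, Atp5e was at 385 CPM in 3 months replicate 2 and Cox6a1 at 465 CPM in 3 months replicate 3. In the shallow 6 months replicate 2, Ndufa5 was at 0 CPM and mt-Nd6 took 1.11% of mitochondrial mRNA reads.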

How the results depend on the processing

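Of 531 counts and ratios under alternatives, 484 stayed close to the reported value. Counts had to stay within 1.5 times, and ratios within the pooled standard deviation of the groups compared. Most counts were 0 in the main setting, and a 0 that stayed 0 was taken as close. The share thus says little about the results with calls, Ndufa1 in thyroid and 4 mitochondrial genes between glands, which moved under many settings. Among 899 values of 35 single-gene results, 792 kept direction and side of the threshold, 47 newly passed it, 40 lost it and 20 changed sign. Where no cause is shown by the setting itself, the cause was not tested.

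For the thyroid fractions averaged over ages, calls of mitochondrial members went from 0 to 6 under the strict filter and 4 without shallow libraries. Nuclear calls went from 1 to 0 with no filter, 6 under the strict filter, 2 without shallow libraries, 0 with all 28 libraries in the fit and 0 with the replicate block. At 3 months mitochondrial calls went from 0 to 1 with DESeq2, with the strict filter and without shallow libraries. For age in GFP− cells, nuclear calls went from 0 to 1 with the strict filter and without shallow libraries.

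For glands in GFP− cells, mitochondrial calls went from 0 to 5 with DESeq2, 6 with the strict filter, 4 without shallow libraries and 3 with library totals. Nuclear calls went from 0 to 9 with library totals, with or without shallow libraries. In GFP+ cells mitochondrial calls went from 4 to 0 with no filter, 7 without shallow libraries and 0 with the replicate block. All 6 genes of the main test were called there with DESeq2, the strict filter, library totals or all 28 libraries. Nuclear calls went from 0 to 8 with library totals and 11 when shallow libraries were also left out. All called genes split into 96 higher and 42 lower (GFP−) and 91 and 49 (GFP+) with TMM, against 689 and 32, and 688 and 40, with library totals. For the thyroid mean over ages the split was 216 and 167 with TMM and 317 and 133 with library totals. The log2 ratio difference was 0.75 in place of 0.38 for thyroid fractions at 6 months without shallow libraries, and -1.94 in place of -2.78 for glands in GFP− cells with pooled reads.

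With 1 library left out, nuclear calls ranged from 0 to 7 for the mean over ages (7 without thyroid GFP+ 3 months replicate 4, 3 without GFP+ 6 months replicate 3), from 0 to 2 at 3 months and from 0 to 2 at 6 months (the same 2 libraries). Mitochondrial calls ranged from 0 to 1 for glands in GFP− cells (1 without thyroid GFP− replicate 1) and from 0 to 7 in GFP+ cells. The gland ratio differences ranged from -2.82 to -2.10 (GFP−) and -5.09 to -3.85 (GFP+).

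Signs changed for mt-Nd6 in the mean over ages (0.023 without shallow libraries, 0.20 with library totals, 0.30 with both, -0.45 to 0.11 with 1 library left out) and Cox4i1 (-0.024 with DESeq2, -0.051 with the replicate block, -1.83 to 0.21 with 1 library left out). They changed with library totals for Atp5g3 (0.038) and Uqcrb (0.033), and with library totals without shallow libraries for Atp5a1 (0.0069) and Uqcrh (0.11). Whether replicate numbers pair the libraries cannot be told from these data. Deviations of same-numbered thyroid fractions correlated above 0.1 in 3 of 11 pairs (-0.089 to 0.35), salivary fractions in 2 of 3 and glands in 0 of 6. Differently numbered libraries were not compared, and shallow libraries were included. The 6 shallow libraries limit the precision of every group they belong to.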
